A study of Saccharomyces cerevisiae with 70 samples.

Results

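Old yellow enzymes and other quinone and carbonyl reductases of budding yeast were followed through 4 time courses of oxidant exposure, 2 with menadione, which is itself a quinone, and 2 with hydrogen peroxide. The set held 8 genes of 5577 measured, OYE2, OYE3, GRE2, GRE3, ZTA1, LOT6, OSI1 and YCP4, matched by symbol to the probe annotation, and all 8 had a probe on each of the 3 array designs. Their systematic names are YHR179W, YPL171C, YOL151W, YHR104W, YBR046C, YLR011W, YKL071W and YCR004C, in the same order.

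Old yellow enzymes are flavoproteins that take electrons from NADPH and pass them to the double bond of unsaturated aldehydes and ketones, and they also reduce quinones. Quinone reductases of the zeta-crystallin and flavodoxin-like families act on quinones themselves, while aldo-keto reductases and short-chain dehydrogenases reduce reactive carbonyls such as methylglyoxal. Several genes of these families are known targets of Yap1, the transcription factor that accumulates in the nucleus when its cysteines are oxidised or modified.

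On each array the experimental culture carried Cy5 and an asynchronous culture, the reference, Cy3, and the 70 arrays formed 4 courses of 1 culture each. Peroxide I (0.24 mM H2O2, 23 arrays at 21 times, 0 to 275 min) used cells synchronised with alpha factor, and menadione I (2 mM, 14 arrays, 0 to 210 min) was labelled by agent and culture density with no word on synchrony or strain. Synchronous cultures of strain DBY8724, followed from their release from G1 arrest, made up peroxide II, with 17 arrays from 0 to 180 min, and menadione II, with 16 from 0 to 140 min. This second pair shared 1 array design, and the labels used here give no dose for it. No untreated course was analysed and the labels used here do not say when the oxidant was added, so in a change over time cell cycle progress and the oxidant response cannot be told apart.

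The deposited log ratios were read as log2 of sample over reference, with base, centring and direction not stated, and the mating pheromone genes bear on the synchrony and the direction. At 0 min their mean log2 ratio was positive in every course, at 1.84 in peroxide II, 1.66 in menadione II, 1.12 in peroxide I and 1.81 in menadione I, with 11, 10, 8 and 11 of 11 genes above 0. The alpha-cell genes, of which 4 were measured, averaged 0.30, 0.26, -0.18 and -0.37 in the same order. Missing spots took between 1.2% and 26.9% of an array, and the repeated arrays of peroxide I correlated at 0.127 (20 min, 5532 genes) and 0.407 (63 min, 5458 genes) and were averaged. The lowest correlation between any pair of arrays was -0.303, in peroxide I. Of the peroxide II arrays those of 14, 21 and 28 min were scanned on another day than the other 14, and menadione II had a separate scan day throughout, so scan day and agent cannot be told apart for a level.

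GRE2 and OSI1 mRNA rose in all 4 courses, OYE2 in both courses of the second series, OYE3 and GRE3 in both peroxide courses and YCP4 in these and in menadione I. ZTA1 and LOT6 passed the test against the first 21 min in none. The calls of OYE2, OYE3 and YCP4 at 51 to 90 min of peroxide II were lost with scan day as a covariate. Several calls were also lost without single arrays, among them those of OYE2 in menadione II and YCP4 in menadione I. In the peroxide courses the highest value of each of the 8 mRNAs after the first 21 min came between 35 and 70 min. For ZTA1 and LOT6, which were not called, this is a maximum and no sign of a response. The last values were mostly near the starting level, but at 180 min of peroxide II LOT6 read -2.04 and OYE2 2.02. In the menadione courses GRE2 and OSI1 were still high on the last array, at 140 min in menadione II and 210 min in menadione I. They were not alone: OYE3 read 4.05 and YCP4 2.13 at 210 min, and OYE3 read 1.90 and GRE3 2.04 at 140 min. None of these was called after 90 min under menadione. OYE2 at 210 min (0.36) and ZTA1 at 140 min (0.44) lay inside their early range. Changes below are differences of mean log2 ratio between a window (22 to 50, 51 to 90 or after 90 min) and the first 21 min of the same course, ± SE, with limma's p adjusted by Benjamini-Hochberg over all genes and a threshold of 0.05. Time points stand in for replicates, so a p-value reflects the spread between arrays within windows and carries no spread between cultures. That spread was pooled per gene over all windows fitted together, which in the second series means both courses. A p-value of menadione II therefore also carries the spread within the windows of peroxide II, and the reverse.

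**Figure D1:**
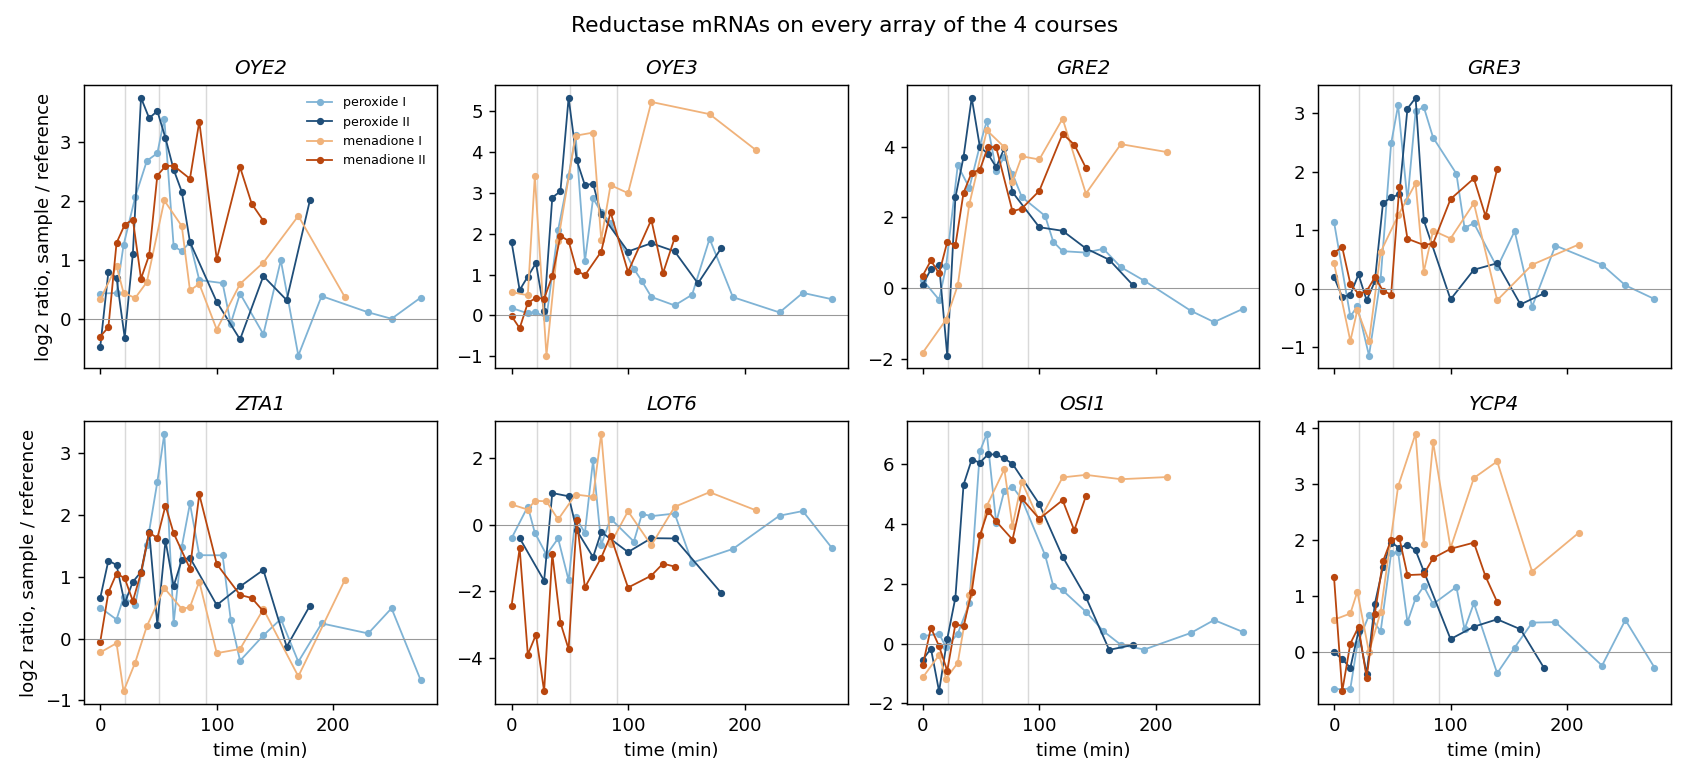
Log2 ratio of sample to reference (vertical axis) against time in minutes (horizontal axis) for the 8 genes, with 1 point per time and 1 line per course; grey vertical lines part the 4 windows, and each panel has its own vertical scale. OSI1 returned to -0.05 at 180 min of peroxide II but stood at 4.93 at 140 min of menadione II.

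More of the genes passed in peroxide II, and in an earlier window, as was so for all genes. Over the whole array 217 and 774 genes were called at 22 to 50 and 51 to 90 min of peroxide II, against 0 and 279 in menadione II. At 22 to 50 min 3 of the 7 testable genes rose (OYE2, GRE2 and OSI1), where 2.76% of all genes tested rose. That background leans on single arrays, since the 217 genes called in either direction became 69 without the 42 min array and 690 without that of 28 min. At 51 to 90 min 6 of 7 rose, all but ZTA1, against 8.99% of all genes, and after 90 min 0 of 7 passed, where 0.634% of all genes changed and 2 of the 7 had an unadjusted p under 0.05 in limma. In menadione II 0 of 8 passed at 22 to 50 min, where 0% of all 5538 genes did and 444 genes, 2 of them in this set, had an unadjusted p under 0.05 in limma. That count of 0 says nothing of these genes or of their timing. At 51 to 90 min 3 of 8 rose (OYE2, GRE2 and OSI1, 2.17% of all genes) and after 90 min 2 of 8 rose (GRE2 and OSI1, 1.21% of all genes). No gene of the set fell against the first 21 min in any course.

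The median change over the set traced the same course. It was 1.68, 2.10 and 0.30 over the 3 windows of peroxide II and 0.76, 1.63 and 1.28 over those of menadione II, while medians over all genes tested lay between -0.0126 and 0.0524. The last window runs to 180 min in peroxide II and to 140 min in menadione II. LOT6 had only 1 value in the first 21 min of peroxide II, so it was not tested there.

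The first series, on other array designs, showed a like sequence. In peroxide I 1 of 8 rose at 22 to 50 min (GRE2, 0.505% of all genes; 43 genes called in either direction, 11 without the 14 or the 49 min array and 385 without that of 30 min), 5 of 8 at 51 to 90 min (OYE3, GRE2, GRE3, OSI1 and YCP4, 6.54% of all genes) and 0 of 8 passed after 90 min (0.108% of all genes changed; 1 of the 8 had an unadjusted p under 0.05). In menadione I 0 of 8 passed at 22 to 50 min, where 0% of all genes did, 174 genes had an unadjusted p under 0.05 and 1 of the 8 did. There 3 of 8 rose at 51 to 90 min (GRE2, OSI1 and YCP4, 1.22% of all genes) and 2 of 8 after 90 min (GRE2 and OSI1, 1.1% of all genes). Median changes over the set were 1.52, 2.00 and 0.42 in peroxide I and 0.04, 1.68 and 1.27 in menadione I.

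**Figure D2:**
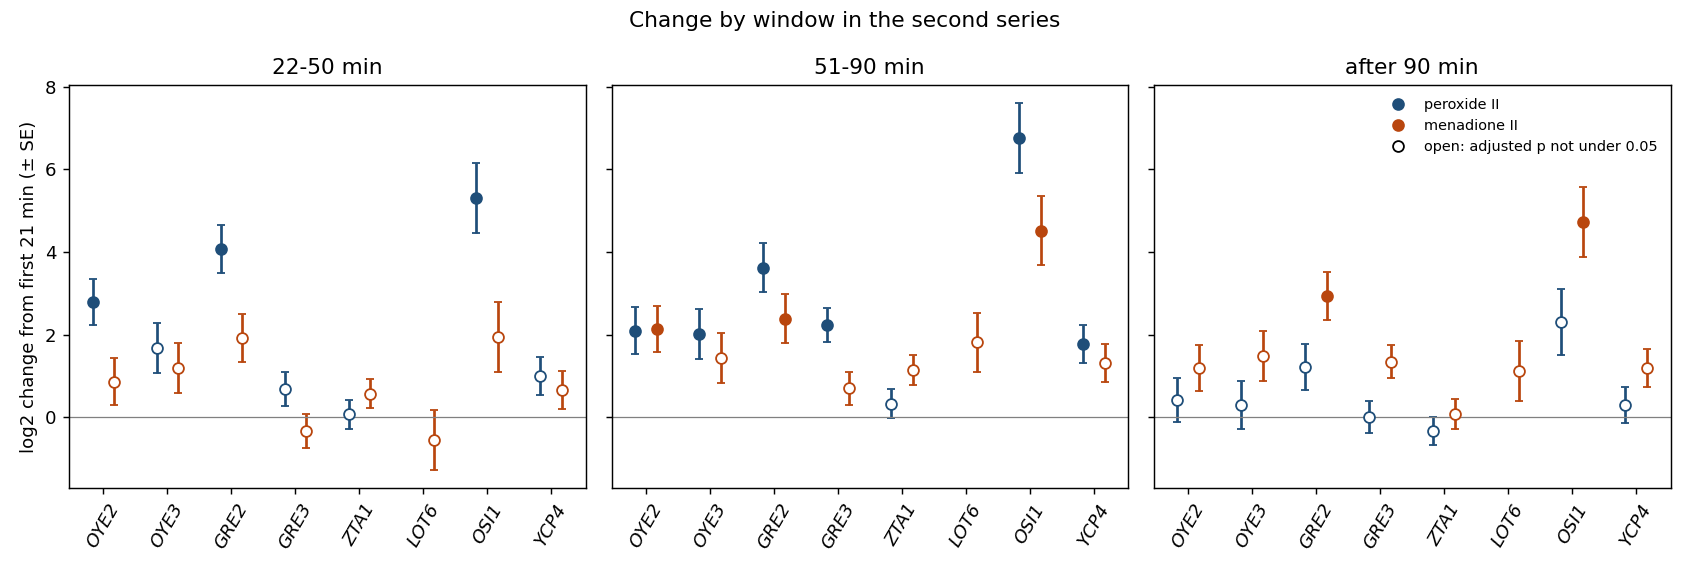
Log2 change from the first 21 min (vertical axis, bars ± SE) of each gene in 3 windows of peroxide II (blue) and menadione II (orange); filled points passed limma's adjusted threshold and open points did not. After 90 min the filled points are those of GRE2 and OSI1 in menadione II.

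OYE2 encodes one of the pair of old yellow enzymes. In peroxide II its log2 ratio was -0.49, 0.80, 0.69 and -0.32 at 0, 7, 14 and 21 min, and 1.10, 3.76, 3.41 and 3.53 at 28, 35, 42 and 49 min. At 56, 63, 70 and 77 min it was 3.07, 2.54, 2.16 and 1.30, all above every early value. After that it read 0.28, -0.36, 0.72, 0.31 and 2.02 at 100, 120, 140, 160 and 180 min, back among the early values except on the last array. The change was 2.78 ± 0.56 at 22 to 50 min (adjusted p = 0.00369, 4 arrays against 4) and 2.10 ± 0.56 at 51 to 90 min (adjusted p = 0.0112). Without the 56 min array the latter call was lost (highest adjusted p 0.0509).

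Under menadione OYE2 was called at 51 to 90 min. In menadione II it read -0.31, -0.15, 1.29 and 1.60 in the first 21 min and 1.69, 0.68, 1.08 and 2.44 at 28 to 49 min, groups that overlap. At 56, 63, 77 and 85 min it was 2.60, 2.60, 2.38 and 3.36, all above the early arrays, and it rose by 2.13 ± 0.56 (adjusted p = 0.022, 4 arrays against 4), a call lost without the 0, 7 or 85 min array (1.82 to 2.46 over all arrays left out in turn). After 90 min it read 1.01, 2.58, 1.96 and 1.67, and the change of 1.19 ± 0.56 did not pass (adjusted p = 0.262).

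In the first series OYE2 did not pass against the first 21 min in any window. In peroxide I it was at 2.07, 2.69 and 2.82 at 30, 40 and 49 min against 0.43, 0.43 and 1.25 in the first 21 min, with no overlap, and the change of 1.82 ± 0.49 had an adjusted p of 0.0823 (3 times against 3). In menadione I, where it is the mean of 2 probes that correlated at 0.505 over 14 arrays, it ranged from -0.19 to 2.01 after the first 21 min.

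OYE3 encodes the other old yellow enzyme. In peroxide II it stood at 1.81, 0.62, 0.95 and 1.28 in the first 21 min, 0.11, 2.89, 3.04 and 5.33 at 28 to 49 min and 3.80, 3.19, 3.23 and 2.48 at 56 to 77 min. The 28 min array was the lowest of the course and the 49 min array the highest. OYE3 rose at 51 to 90 min by 2.01 ± 0.61 (adjusted p = 0.025), while its change of 1.68 ± 0.61 at 22 to 50 min did not pass (adjusted p = 0.106). Without any single one of the arrays at 7, 14, 56, 63 or 70 min the call at 51 to 90 min was lost, with changes between 1.80 and 2.24 and a highest adjusted p of 0.0805 over all arrays left out in turn.

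OYE3 also rose in peroxide I, by 2.58 ± 0.59 at 51 to 90 min (adjusted p = 0.004), from 0.19, 0.05 and 0.09 at 0, 14 and 20 min to 4.43, 1.33, 2.87, 2.53 and 2.27 at 55, 63, 70, 77 and 85 min. It did not pass in menadione II in any window, with changes of 1.18 ± 0.61, 1.44 ± 0.61 and 1.48 ± 0.61. In menadione I its values were among the highest it reached, 4.41, 4.48, 1.85 and 3.20 at 55 to 85 min and 3.00, 5.23, 4.93 and 4.05 at 100, 120, 170 and 210 min. The baseline there held 1 array at 3.41 (20 min) beside 0.57 and 0.50, and the changes of 1.99 ± 0.85 and 2.81 ± 0.85 did not pass (adjusted p = 0.275 and 0.135). OYE2 and OYE3 have closely similar coding sequences, and how far their spots share label was not tested. Over the time points of a course their log2 ratios correlated at 0.74 in peroxide II (17 arrays), 0.706 in menadione II (16 arrays), 0.625 in peroxide I (21 times) and 0.457 in menadione I.

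GRE2, whose product reduces methylglyoxal and other aldehydes with NADPH, was called in all 4 courses. In peroxide II it read 0.10, 0.54, 0.67 and -1.91 in the first 21 min and 2.57, 3.71, 5.38 and 4.00 at 28 to 49 min, with no overlap. At 56 to 77 min it was 3.79, 3.42, 3.96 and 2.71, and after 90 min it declined array by array from 1.72 through 1.62, 1.12 and 0.80 to 0.10. It rose by 4.06 ± 0.59 at 22 to 50 min (adjusted p = 0.000197, the 8th largest absolute change of 5501 genes) and by 3.62 ± 0.59 at 51 to 90 min (adjusted p = 0.000168).

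GRE2 was still high on the late arrays of menadione II. In menadione II it went from 0.36, 0.78, 0.42 and 1.31 in the first 21 min to 4.00, 3.98, 2.17 and 2.25 at 56 to 85 min and 2.75, 4.36, 4.06 and 3.40 at 100 to 140 min. Every array from 35 min on was above every early array. The rise was 2.39 ± 0.59 at 51 to 90 min (adjusted p = 0.0138) and 2.93 ± 0.59 after 90 min (adjusted p = 0.00467, 4 arrays against 4). Leaving out the 56 or the 63 min array ended the call at 51 to 90 min, with changes between 2.09 and 2.70 over all arrays left out in turn.

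The same gene rose in the first series too. In peroxide I GRE2 read 0.23, -0.33 and 0.62 in the first 21 min, 3.47, 2.84 and 4.03 at 30 to 49 min and 4.73, 3.32, 3.71, 3.23 and 2.58 at 55 to 85 min. The rises were 3.27 ± 0.63 (adjusted p = 0.0139) and 3.34 ± 0.56 (adjusted p = 0.000341), and the former was lost without the 0, 14 or 49 min array (2.98 to 3.58, adjusted p up to 0.121). After 90 min of peroxide I its 10 values ran from -0.96 to 2.04 with a median of 0.80. In menadione I it was at -1.82 and -0.89 at 0 and 20 min, with no value at 14 min, at 4.46, 3.99, 3.01 and 3.73 at 55 to 85 min and at 3.64, 4.79, 2.67, 4.07 and 3.85 from 100 to 210 min. The rises, 5.15 ± 0.67 and 5.16 ± 0.64 (adjusted p = 0.000635 and 0.000316), rest on those 2 early arrays.

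GRE3, an aldose reductase of the aldo-keto reductase family, was called in the 51 to 90 min window of both peroxide courses. In peroxide II it read 0.20, -0.14, -0.10 and 0.24 early, -0.20 at 28 min, below all of these, and 0.12 at 35 min. It then read 1.46 and 1.56 at 42 and 49 min and peaked at 1.61, 3.08, 3.26 and 1.17 at 56 to 77 min. From 100 min on it was back at -0.19, 0.32, 0.43, -0.27 and -0.09. It rose at 51 to 90 min by 2.23 ± 0.41 (adjusted p = 0.000526, 4 arrays against 4) and changed by 0.69 ± 0.41 at 22 to 50 min (adjusted p = 0.367). In peroxide I the rise at 51 to 90 min was 2.55 ± 0.61 (adjusted p = 0.00525), from 1.14, -0.48 and -0.30 to 3.14, 1.50, 3.03, 3.11 and 2.58.

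Under menadione GRE3 did not pass in any window. In menadione II it went from 0.61, 0.71, 0.08 and -0.09 in the first 21 min to 1.73, 0.85, 0.75 and 0.77 at 56 to 85 min and then 1.53, 1.88, 1.24 and 2.04 at 100 to 140 min, the last of these the highest of the course. Both later windows lay above all early arrays, with changes of 0.70 ± 0.41 (adjusted p = 0.36) and 1.35 ± 0.41 (adjusted p = 0.0633). In menadione I, where GRE3 is the mean of 2 probes that correlated at 0.627, the changes were 1.36 ± 0.51 and 0.93 ± 0.49 (adjusted p = 0.207 and 0.412).

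ZTA1, for a zeta-crystallin-like quinone reductase, and LOT6, for a flavin-dependent quinone reductase, passed against the first 21 min in no course. ZTA1 came closest in menadione II at 51 to 90 min, where 2.15, 1.71, 1.13 and 2.34 at 56, 63, 77 and 85 min stood above -0.05, 0.75, 1.05 and 0.98 early on. That change was 1.15 ± 0.36 (adjusted p = 0.054), and it passed without the 77 min array. In peroxide II ZTA1 stayed between -0.13 and 1.73 on all 17 arrays, and in peroxide I it touched 3.32 at 55 min. In menadione I its 2 probes correlated at only 0.011 over 14 arrays and differed by a median of 1.40 in log2 ratio, so its values there are uncertain.

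LOT6 was the least completely measured. It had 11 values of 17 in peroxide II, between -2.04 and 0.94, and all 16 in menadione II. There it read -2.44, -0.71, -3.89 and -3.29 in the first 21 min, -4.99 at 28 min and 0.12, -1.88, -0.99 and -0.34 at 56 to 85 min. These groups overlap, and the change of 1.81 ± 0.72 at 51 to 90 min did not pass (adjusted p = 0.15). In peroxide I its values lay between -1.67 and 1.93 and in menadione I between -0.62 and 2.72.

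OSI1, named for its induction in oxidative stress and related to NAD(P)-dependent oxidoreductases, had the largest change of the set at 51 to 90 min in all 4 courses. In peroxide II it read -0.54, -0.17, -1.60 and 0.16 in the first 21 min, 1.53 at 28 min, 5.32, 6.16 and 6.05 at 35, 42 and 49 min and 6.33, 6.33, 6.19 and 6.01 at 56 to 77 min. It then declined to 4.67, 2.91, 1.55, -0.21 and -0.05 at 100, 120, 140, 160 and 180 min, the last a value inside the early range. The rises of 5.30 ± 0.84 at 22 to 50 min (adjusted p = 0.000431) and 6.75 ± 0.84 at 51 to 90 min (adjusted p = 1.01e-05) had the largest absolute size of all 5501 and 5519 genes tested. If base 2 holds, they are 39.5-fold and 108-fold.

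Under menadione OSI1 passed from 51 min on and was still high on the last array. In menadione II it read -0.73, 0.53, -0.09 and -0.91 early, 0.65, 0.58, 1.73 and 3.62 at 28 to 49 min, 4.44, 4.09, 3.48 and 4.85 at 56 to 85 min and 4.17, 4.80, 3.79 and 4.93 at 100 to 140 min. All 12 arrays from 28 min on were above every early array. Its rises of 4.52 ± 0.84 at 51 to 90 min (adjusted p = 0.00221) and 4.72 ± 0.84 after 90 min (adjusted p = 0.00173) were again the largest absolute changes of all genes tested in those windows.

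The first series showed OSI1 on other arrays. In peroxide I it stood at 0.24, 0.33 and -0.13 in the first 21 min, 0.33, 1.35 and 6.43 at 30, 40 and 49 min and 7.02, 4.04, 5.12, 5.25 and 4.83 at 55 to 85 min. It rose by 5.10 ± 0.93 at 51 to 90 min (adjusted p = 0.000634), and its 10 later values ran from -0.20 to 2.96 with a median of 0.60, overlapping the early ones. In menadione I it went from -1.14, -0.39 and -1.17 to 4.61, 5.83, 3.93 and 5.42 at 55 to 85 min and 4.10, 5.56, 5.64, 5.50 and 5.57 at 100 to 210 min. Those rises were 5.84 ± 0.58 and 6.17 ± 0.55 (adjusted p = 4.72e-05 and 1.39e-05), the largest of 5552 genes in both windows.

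YCP4, a flavodoxin-like protein gene, moved in the same direction with smaller size. In peroxide II it read 0.00, -0.12, -0.28 and 0.38 early and 1.86, 1.92, 1.82 and 1.45 at 56 to 77 min, and it rose by 1.77 ± 0.46 (adjusted p = 0.00952). In peroxide I the rise at 51 to 90 min was 1.45 ± 0.37 (adjusted p = 0.00782), from -0.66, -0.65 and 0.14 to 1.78, 0.54, 0.96, 1.18 and 0.86. In menadione I YCP4 rose by 2.35 ± 0.54 at 51 to 90 min (adjusted p = 0.0302), from 0.58, 0.69 and 1.08 to 2.96, 3.90, 1.92 and 3.75. That call was lost without any one of 6 of the 7 arrays compared, all but 77 min (2.09 to 2.75, adjusted p up to 0.135). In menadione II the changes of 1.31 ± 0.46 and 1.20 ± 0.46 at 51 to 90 and after 90 min did not pass (adjusted p = 0.0902 and 0.152).

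Scan day bears on the peroxide II values. With the arrays of the first scan day alone, whose early arrays are 0 and 7 min, the changes at 22 to 50 min were 3.41 for OYE2, 4.05 for GRE2 and 6.20 for OSI1, all past the threshold, and OYE3 passed too at 2.54 (adjusted p = 0.0129). All 6 genes called at 51 to 90 min passed on that day as well. On the second scan day, with 14 and 21 min against 28 min alone, OYE2, GRE2 and OSI1 changed by 0.92, 3.19 and 2.26. With 1 later array these are effect sizes only. With scan day as a covariate the 51 to 90 min calls of OYE2 (1.58, adjusted p = 0.154), OYE3 (1.20, adjusted p = 0.318) and YCP4 (1.41, adjusted p = 0.124) were lost, and GRE2, GRE3 and OSI1 passed. The shares of all genes called on the first scan day alone or with the covariate are not given here. These calls therefore cannot be set against those of all genes.

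The second series allows a quinone and a peroxide to be compared on 1 array design. Both agents were followed by rises of OYE2, GRE2 and OSI1, first called at 22 to 50 min in peroxide II and at 51 to 90 min in menadione II. In menadione II no gene of the whole array passed at 22 to 50 min, and OYE2 did not pass after 90 min. Tested as a difference of changes, menadione II minus peroxide II, 0 of 7 genes passed at 22 to 50 min (0% of all genes), 0 of 7 at 51 to 90 min (0.145% of all genes) and 0 of 7 after 90 min (1.09% of all genes). At an unadjusted p under 0.05 in limma, 3, 1 and 3 of the 7 stood apart. The set's median difference was -1.01, -0.57 and 1.18 over the 3 windows, against medians over all genes between -0.076 and -0.00144.

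The signs of the median, lower under menadione in both earlier windows and higher after 90 min, were those of OYE3, GRE2, GRE3, OSI1 and YCP4. OYE2 was near 0 at 51 to 90 min, and ZTA1 differed by 0.51, 0.82 and 0.41 (adjusted p = 0.756, 0.468 and 0.759), higher under menadione throughout. OSI1 differed by -3.36 ± 1.19 at 22 to 50 min (adjusted p = 0.277), by -2.24 ± 1.19 at 51 to 90 min (adjusted p = 0.383) and by 2.41 ± 1.16 after 90 min (adjusted p = 0.324). The last of these takes in the peroxide II arrays at 160 and 180 min, where OSI1 read -0.21 and -0.05. Menadione II has no arrays that late, and at the shared times of 100, 120 and 140 min OSI1 differed by -0.73, 1.65 and 3.14. GRE2 differed by -2.15 ± 0.83, -1.24 ± 0.83 and 1.70 ± 0.81 (adjusted p = 0.333, 0.515 and 0.314). OYE2 differed by -1.92 ± 0.79, 0.03 ± 0.79 and 0.77 ± 0.77 (adjusted p = 0.358, 0.993 and 0.703), and GRE3 by -1.01 ± 0.58, -1.53 ± 0.58 and 1.35 ± 0.56 (adjusted p = 0.547, 0.195 and 0.238).

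At the times measured in both courses of the second series, each course taken from its own early mean, OSI1 was lower under menadione at all 4 times from 28 to 49 min (differences of -4.98 to -1.12) and at all 3 from 56 to 77 min (-2.77 to -2.12). It was also lower at 100 min and higher at 120 and 140 min, with a highest difference of 3.14. GRE2 and GRE3 were lower under menadione at all 7 times from 28 to 77 min and higher at all 3 after 90 min, by 0.16 to 1.88 and 1.28 to 1.44. OYE2 and OYE3 were higher under menadione at all 3 late times as well. These comparisons have 1 array per course and time, and no test was made of them.

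**Figure D3:**
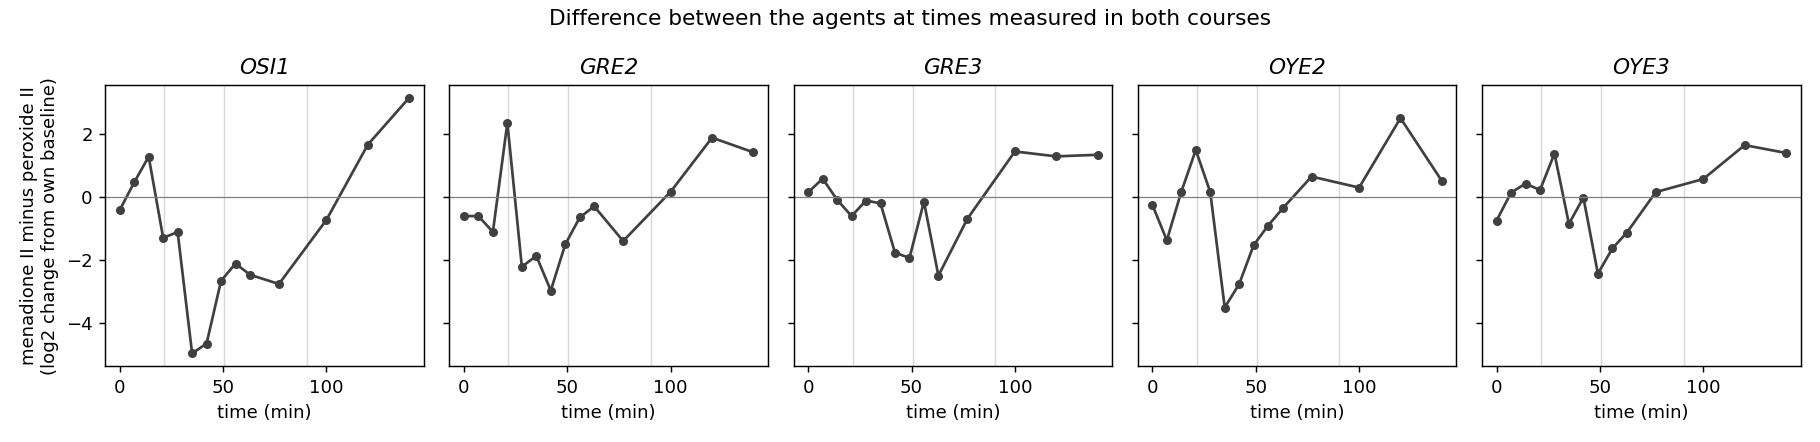
Difference between agents (vertical axis, log2 change in menadione II minus that in peroxide II, each from its own mean of the first 21 min) against time in minutes for 5 genes, with 1 point per time measured in both courses. OSI1 runs from -4.98 at its lowest to 3.14 at 140 min.

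The levels after the peak were compared directly, after 90 min against 51 to 90 min, in a comparison added after the values were seen. In peroxide II 3 of 8 genes fell (2.06% of all genes did), and all 8 changes were negative, with a median of -1.69. GRE2 fell by 2.40 ± 0.56 (adjusted p = 0.0139), GRE3 fell by 2.24 ± 0.39 (adjusted p = 0.00138), and OSI1 fell by 4.44 ± 0.80 (adjusted p = 0.00192). The GRE2 call was lost without the 56 or the 70 min array (highest adjusted p 0.056). In peroxide I 6 of 8 fell, against 6.11% of all genes, with changes of -4.31 ± 0.70 for OSI1 (adjusted p = 0.000281), -3.00 ± 0.42 for GRE2 (adjusted p = 6.74e-05) and -2.03, -2.06, -1.57 and -1.36 for OYE3, GRE3, ZTA1 and OYE2. LOT6 and YCP4 did not pass there.

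No gene of the set passed in either menadione course. In menadione II 0 of 8 passed, where 0.0361% of all genes changed and 1 of the 8 had an unadjusted p under 0.05 in limma, and the median change was -0.03. In menadione I 0 of 8 passed, where 0% of all genes did and 360 genes, none of the 8, had an unadjusted p under 0.05, and the median was -0.45. With so few genes called, these counts of 0 say nothing of the 8 genes. OSI1 changed by 0.21 ± 0.84 and 0.33 ± 0.51 in the 2 courses, GRE2 by 0.54 ± 0.59 and 0.01 ± 0.51.

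In the difference between agents of that late change, 1 of 8 genes passed, where 0.163% of all genes were higher. GRE3 was higher under menadione by 2.89 ± 0.56 (adjusted p = 0.0173), while OSI1 differed by 4.65 ± 1.16 (adjusted p = 0.07) and GRE2 by 2.94 ± 0.81 (adjusted p = 0.119). Peroxide II runs to 180 min and menadione II to 140 min, and with arrays up to 140 min alone the GRE3 difference was 2.74 (adjusted p = 0.0802). The call was also lost without the 63 min array of peroxide II (highest adjusted p 0.0569).

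**Figure D4:**
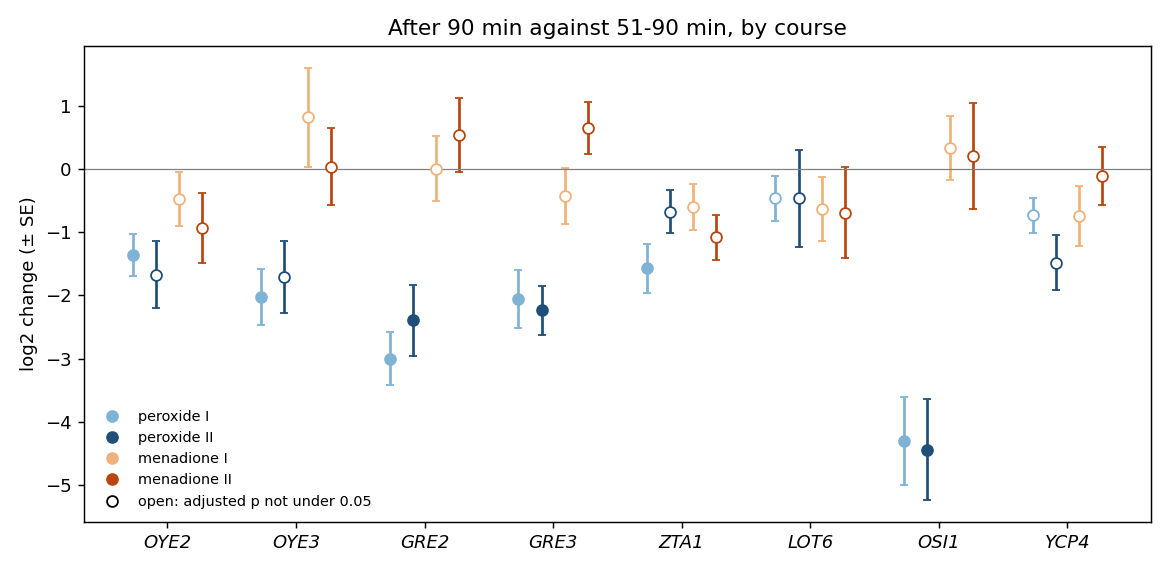
Log2 change after 90 min against 51 to 90 min (vertical axis, bars ± SE) of the 8 genes in the 4 courses; filled points passed limma's adjusted threshold. The filled points all belong to the peroxide courses, 3 in peroxide II and 6 in peroxide I. Of all genes 2.06% fell in peroxide II and 6.11% in peroxide I, while 0.0361% changed in menadione II and 0% in menadione I. The lack of filled points under menadione therefore says nothing of these genes.

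Over the time points of a course, GRE2 and OSI1 had like profiles, with correlations of 0.86 in peroxide II, 0.803 in menadione II, 0.815 in peroxide I and 0.933 in menadione I. The points share a culture, a reference and the course of time, so these are descriptions of shape. Over the arrays of the second series, each course taken from its own mean, the 3 profiles nearest to OSI1 were those of TSA2, a cytosolic peroxiredoxin (r = 0.952), and the aryl-alcohol dehydrogenase family genes AAD3 (0.938) and AAD14 (0.931), which have similar sequences. Those nearest to GRE2 were YMR027W (0.91), the multidrug exporter gene FLR1 (0.899) and the peroxidase gene GPX2 (0.887), all over 33 arrays.

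The other members lay further from their nearest genes. OYE2 was nearest to YHI9 (0.786), NMA2, of NAD synthesis (0.777), and AIF1 (0.776). OYE3 was nearest to GSY2, a glycogen synthase (0.835), AAD14 (0.828) and STF2 (0.822), GRE3 to BDH1, a butanediol dehydrogenase (0.823), MIX14 (0.808) and LAT1 (0.796), and YCP4 to YNL134C (0.846), AIM46 (0.845) and UGA1 (0.844). ZTA1 was nearest to TIM22 (0.778), DIG2 (0.731) and REG2 (0.701). LOT6, over 27 arrays, was nearest to UBX2 (0.695), NUP188 (0.657) and YEL075C (0.657).

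Some relatives of these enzymes passed in both agents. Of 18 tested of 19 listed aldo-keto reductases, short-chain and medium-chain dehydrogenases and flavodoxin-like or nitroreductase-like genes, 4, 11 and 0 rose over the 3 windows of peroxide II and 0, 3 and 3 over those of menadione II, with none falling. Over all genes 2.76%, 8.99% and 0.507% rose in peroxide II and 0%, 2.17% and 1.21% in menadione II. In the first series 1, 9 and 0 of 18 rose over the windows of peroxide I and 0, 4 and 3 over those of menadione I, against 0.505%, 6.54% and 0.0721% of all genes and 0%, 1.22% and 1.1%. The median changes were 0.92, 1.65 and 0.05 in peroxide II and 0.19, 0.68 and 0.72 in menadione II. YNL134C rose by 4.48 ± 0.60 (adjusted p = 1.95e-05) at 51 to 90 min of peroxide II and by 4.03 ± 0.60 (adjusted p = 0.000227) in menadione II. PST2, a flavodoxin-like gene, rose by 3.50 ± 0.68 (adjusted p = 0.000995) and 4.05 ± 0.68 (adjusted p = 0.000676) in the same windows, and by 4.53 ± 0.68 after 90 min of menadione II (adjusted p = 0.000297).

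FRM2, a nitroreductase-like gene, rose in peroxide II by 3.43 ± 0.54 (adjusted p = 0.000145) at 51 to 90 min and then fell by 3.44 ± 0.48 (adjusted p = 7.04e-05). Its late change was higher under menadione by 3.71 ± 0.69 (adjusted p = 0.0135). FRM2 was the 1 relative of 18 to pass in that difference, where 0.163% of all genes were higher. The late comparison was added after the values were seen. Peroxide II runs to 180 min and menadione II to 140 min. The FRM2 difference with arrays up to 140 min alone is not given here. ADH6, an NADPH-dependent alcohol dehydrogenase with broad aldehyde substrates, rose by 1.92 ± 0.45 (adjusted p = 0.0105) at 51 to 90 min of menadione II. Among the relatives 7 of 18 fell late in peroxide II, against 2.06% of all genes, and 11 of 18 in peroxide I, against 6.11%. In the menadione courses 0 of 18 did, where 0.0361% and 0% of all genes fell, so the count of 0 says nothing of the relatives.

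Of 9 genes of aldehyde and methylglyoxal removal, 1, 3 and 0 rose over the windows of peroxide II, where 2.76%, 8.99% and 0.507% of all genes did. In menadione II 0, 1 and 1 rose, against 0%, 2.17% and 1.21% of all genes. HSP31, a methylglyoxalase and chaperone gene, was the one called in menadione II, at 3.02 ± 0.53 (adjusted p = 0.00139) and 2.64 ± 0.53 (adjusted p = 0.00467), and it rose by 2.57 ± 0.53 (adjusted p = 0.00177) at 51 to 90 min of peroxide II. In peroxide I 6 of 9 rose at 51 to 90 min (6.54% of all genes), and ALD6, the cytosolic acetaldehyde dehydrogenase, fell by 3.09 ± 0.60 (adjusted p = 0.00101).

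Of 8 regulators of such genes, 2 rose in each agent's course of the second series at 51 to 90 min, against 8.99% of all genes in peroxide II and 2.17% in menadione II. None rose in the other windows, of which that of 22 to 50 min in menadione II had 0% of all genes called. In peroxide II these were YAP1, by 2.28 ± 0.60 (adjusted p = 0.011), and PDR1, a drug resistance regulator, by 1.21 ± 0.38 (adjusted p = 0.0313). In menadione II they were PDR1, by 1.48 ± 0.38 (adjusted p = 0.0193), and STB5, a regulator of NADPH supply, by 1.45 ± 0.43 (adjusted p = 0.043). The difference between agents passed for none of the 8 in any window, and neither did it for any gene of the aldehyde list. Of all genes 0% passed in that difference at 22 to 50 min, 0.145% at 51 to 90 min and 1.09% after 90 min. With so few genes called, the lack of calls says nothing of either list.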

How the data were processed

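The authors deposited log ratios per probe and array, taken here as log2 values (base, centring, direction, spot filter, background correction and normalisation are not given in the sources used here). Per the labels, Cy5 carried the sample and Cy3 the asynchronous reference. Probes were named through the platform annotation, averaged per gene, centred on each array's median gene, and the repeats at 20 and 63 min of peroxide I were averaged. Genes needed a value on 75% of the arrays of a table and on 2 arrays of each group compared. Window means were fitted per course in limma 3.58.1 (R 4.3.3) with moderated variances pooled over a table, and Benjamini-Hochberg adjustment ran over all genes tested, with a threshold of 0.05. The first and second series were not compared by a test.

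Windows end at 21, 50 and 90 min. The text names the 8 genes, the 3 nearest profiles of each and, per gene list, up to 4 of the largest changes past the threshold in the comparison described. Genes, lists and windows were chosen with earlier results of these data known, and the late comparison was added after the values were seen. The fit was tested on simulated data: of genes changed by 2, 3 and 4 (log2) in peroxide II at 51 to 90 min (5519 genes), 74.6%, 92.8% and 98.6% were recovered. The shares were 91.7%, 100% and 100% in peroxide I and 57.7%, 91.2% and 95.4% in menadione I, so a change of 2 was missed more often there. No change was simulated in menadione II, and the simulated arrays held no drift over time within a window. Alternatives changed array scaling, centring, weights, window edges, missing-value limits, probe averaging, repeats, scan day and the arrays included. A planned search for promoter motifs was not run. The number of arrays limits the precision.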

Additional observations from a re-analysis of the deposited data

Results flagged for a closer look

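Among 93 groups of 4 to 10 arrays of 1 gene, course and window, 5 held an array far from the rest, and chance gives about 1 in 20. GRE3 in menadione II was at 1.73 at 56 min, with the next of its 4 arrays at 0.85. OSI1 in menadione I was at 4.10 at 100 min, with the other 4 late arrays at 5.50 or higher. OYE2 in peroxide I reached 3.40 at 55 min, where the next of 5 times was at 1.30, and OYE2 in peroxide II stood at 1.10 at 28 min, below 3.41, the next of 4. OYE3 in peroxide II read 0.79 at 160 min, below 1.57 on the nearest of the other 4 late arrays. The peroxide II array of 28 min belongs to the second scan day, and its part in the OYE2 value was not tested.

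The late change of GRE3 differed between the agents of the second series by 2.89 ± 0.56 (limma's adjusted p = 0.0173), higher under menadione. In menadione II its log2 ratio ran from 0.75 to 1.73 at 51 to 90 min and from 1.24 to 2.04 after it, and in peroxide II from 1.17 to 3.26 and then from -0.27 to 0.43.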

How the results depend on the processing

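Of 2875 changes of single genes recomputed under another setting or with 1 array left out, 86 turned sign, and in none of these did either setting pass the test. No paired analysis was possible because the labels carry no replicate numbers, but times measured in both courses of the second series were fitted with time as a block.

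Counts of the 8 genes called moved as follows. With array weights peroxide I at 22 to 50 min had 3 in place of 1, the late comparison of peroxide II 6 in place of 3 and its difference between agents 3 in place of 1. With only the arrays of the windows compared the last 2 were 6 and 3. With window edges at 28, 56 and 100 min the baseline took in 28 min, and the next window ran from there to 56 min in place of 22 to 50 min. Its counts rose to 4 in peroxide I, to 5 in the second peroxide course and to 2 in menadione II. The late counts, then split at 100 min, were 1 in peroxide II and 0 for the difference. With arrays up to 140 min peroxide II had 1 after 90 min (OSI1, 3.58, adjusted p = 0.0363) and 1 in the late comparison, and the difference 0. With scan day as a covariate peroxide II had 3 at 51 to 90 min and the late difference 2. On the first scan day alone the late counts were 6 and 3. Arrays scaled to the same spread left 1 of 3 in menadione II at 51 to 90 min, and the shared times with time as a block left 0 in the late difference. The share of all genes called under each of these settings is not given here, so a move of the set cannot be told apart from one of all genes. The cause of these moves was not tested.

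With 1 array left out the counts ran from 3 to 5, 4 to 6 and 0 to 0 over the windows of peroxide II, 0 to 0, 2 to 4 and 2 to 2 in menadione II, 0 to 4, 5 to 6 and 0 to 0 in peroxide I and 0 to 0, 1 to 3 and 1 to 2 in menadione I. The differences ran 0 to 1, 0 to 0 and 0 to 0. The late comparison ran 2 to 4 in peroxide II, 6 to 7 in peroxide I, 0 to 0 in both menadione courses and 0 to 2 for the difference. OSI1 passed in the difference at 22 to 50 min without the 28 min array of peroxide II, and in the late difference without its 100 min array. At 22 to 50 min of peroxide I OYE2, OYE3 and OSI1 passed without the 30 min array. The genes called over the whole array moved too. They ran from 69 to 690, 495 to 692 and 16 to 55 over the windows of peroxide II, 0 to 10, 135 to 235 and 74 to 168 in menadione II, 11 to 385, 596 to 968 and 3 to 12 in peroxide I and 0 to 1, 32 to 96 and 22 to 65 in menadione I. For the differences they ran 0 to 82, 2 to 43 and 3 to 70. In the late comparison they ran 61 to 154 in peroxide II, 505 to 859 in peroxide I, 1 to 7 in menadione II and 0 to 1 in menadione I. For the late difference they ran 6 to 28.

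Among the changes given above, these turned sign, called under neither setting. GRE2 late in menadione I was -0.00044 with the median of probes and -0.082 with array weights, OSI1 late in menadione II -0.0088 without centring of arrays, and the OYE2 difference at 51 to 90 min -0.37 with arrays scaled to the same spread and -0.22 with shared times as a block. On the second scan day OYE3 and GRE3 changed by -1.01 and -0.27 at 22 to 50 min of peroxide II. With 1 array left out the late change ran from -0.26 to 0.29 for GRE2 in menadione I, from -0.0095 to 0.62 for OSI1 there and from -0.038 to 0.42 for OSI1 in menadione II, and the OYE2 difference at 51 to 90 min from -0.29 to 0.36. In those ranges no value passed.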
